A study of Mus musculus with 6 samples.

Results

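The 10 genes described here encode transcription factors and a cofactor that steer CD8 T cells between effector and memory fates: Prdm1, Bcl6, Bach2, Tbx21, Eomes, Zeb2, Maf, Hopx, Runx3 and Tox. They were taken by symbol from the 25655 Ensembl genes listed in each library, and all 10 were found. The study asked how gene expression in activated CD8 T cells differs when Utx is lost. Utx is the product of Kdm6a, a demethylase that removes methyl groups from lysine 27 of histone H3. The WT and the Utx knockout group (Utx KO) each had 3 biological replicates of splenic CD8 T cells from female C57BL/6 mice. In both groups naive cells met plate-bound antibodies to CD28 (1 µg/ml) and TCR-beta (3 µg/ml) for 2 days in interleukin 2 (10 ng/ml), and 3 further days in this cytokine alone brought them to day 5. The sources used here do not give the age of the mice, the deleted part of Kdm6a or how the deletion is driven. They do not say either that each replicate is another animal, and p-values therefore describe the variation among these samples, which may be technical. Values of single libraries are listed in the order of replicates 1, 2 and 3.

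An activated CD8 T cell can become a short-lived killer or a long-lived memory cell, and sets of opposing factors weigh on this choice. Blimp-1 (Prdm1) is a repressor that drives terminal effector differentiation; Bcl6 is a repressor that favours memory and follicular programs, and each is known to repress the gene of the other. Bach2 holds cells in a naive or memory-like state and is known to repress Prdm1. T-bet (Tbx21) and Eomes are T-box activators of killing and interferon gamma genes, with T-bet leaning to effector and Eomes to memory cells.

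Recovered library totals ran from 1619085 to 2529113 reads. At these depths a gene with no read could still lie at up to 1.19 to 1.85 CPM (counts scaled to the same total in every library; 3 reads of the total). Pearson's r of log2(CPM + 1), taken across genes, was 0.974 to 0.980 for libraries of 1 genotype and 0.959 to 0.967 for libraries of 2 genotypes. The targeted gene Kdm6a read 44.3, 49.3 and 53.6 CPM in the WT libraries, against 27.8, 39.4 and 31.5 CPM in the Utx KO libraries. Its fall (log2 fold change −0.57, SE 0.15, limma adjusted p = 0.0123) had adjusted p from 0.0056 to 0.0985 over 16 alternatives and was lost in 4 of them: with DESeq2 (0.0985), without WT replicate 2 (0.0528), without WT replicate 3 (0.0708) and without Utx KO replicate 1 (0.0554). A 3' tag may lie outside the deleted part, so this value does not check the labels. The 8 markers of CD8 T cells were all present, with summed levels of 2378 to 2479 CPM in WT libraries and of 2600 to 2664 CPM in Utx KO libraries. By limma 4 of these 8 were called, where 10.8% of all tested genes were. Cd3d (log2 fold change 0.30, limma adjusted p = 0.000224), Cd3e (0.32, adjusted p = 0.0085) and Cd8b1 (0.19, adjusted p = 0.0318) were higher in Utx KO. Cd2 was lower (−0.30, limma adjusted p = 0.00147). Of 4 markers of CD4 T cells, Cd4 had no read in any library, but Zbtb7b and Foxp3 had reads in every library. These 4 markers summed to 11.5 to 17.5 CPM in WT libraries and 11.1 to 13.5 CPM in Utx KO libraries. Zbtb7b and Foxp3 entered the limma fit and were not called (limma adjusted p = 0.663 and 0.568). The part of CD4 T cells in the results was not tested. Mitochondrial genes held 2.07 to 2.51% of the reads in WT and 1.53 to 1.83% in Utx KO, and genes of cytosolic ribosomal proteins 14.9 to 15.1% and 16.1 to 16.7%. The part of these 2 shares in the results was not tested.

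The fate factors changed in both directions in Utx KO cells. Prdm1, Eomes, Maf and Hopx fell, Bach2, Tox and Bcl6 rose, and Tbx21, Zeb2 and Runx3 did not pass the test. Thus 7 of 10 factors had a limma adjusted p under 0.05, 3 higher and 4 lower, where 10.8% of all 10590 tested genes did (5.28% higher and 5.51% lower). The groups did not overlap for the same 7 factors, against 26.5% of all tested genes. The median log2 fold change of the 10 factors was 0.11, and that of all tested genes was 0.01. All 10 factors passed the filter on low values, but Bcl6 passed it only through the Utx KO libraries, so its difference is in part fixed by the filter. In these bulk samples fewer cells that express a gene and less RNA per cell cannot be told apart. The plot of levels by library shows the 10 factors on axes that start at 0.

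**Figure D1:**
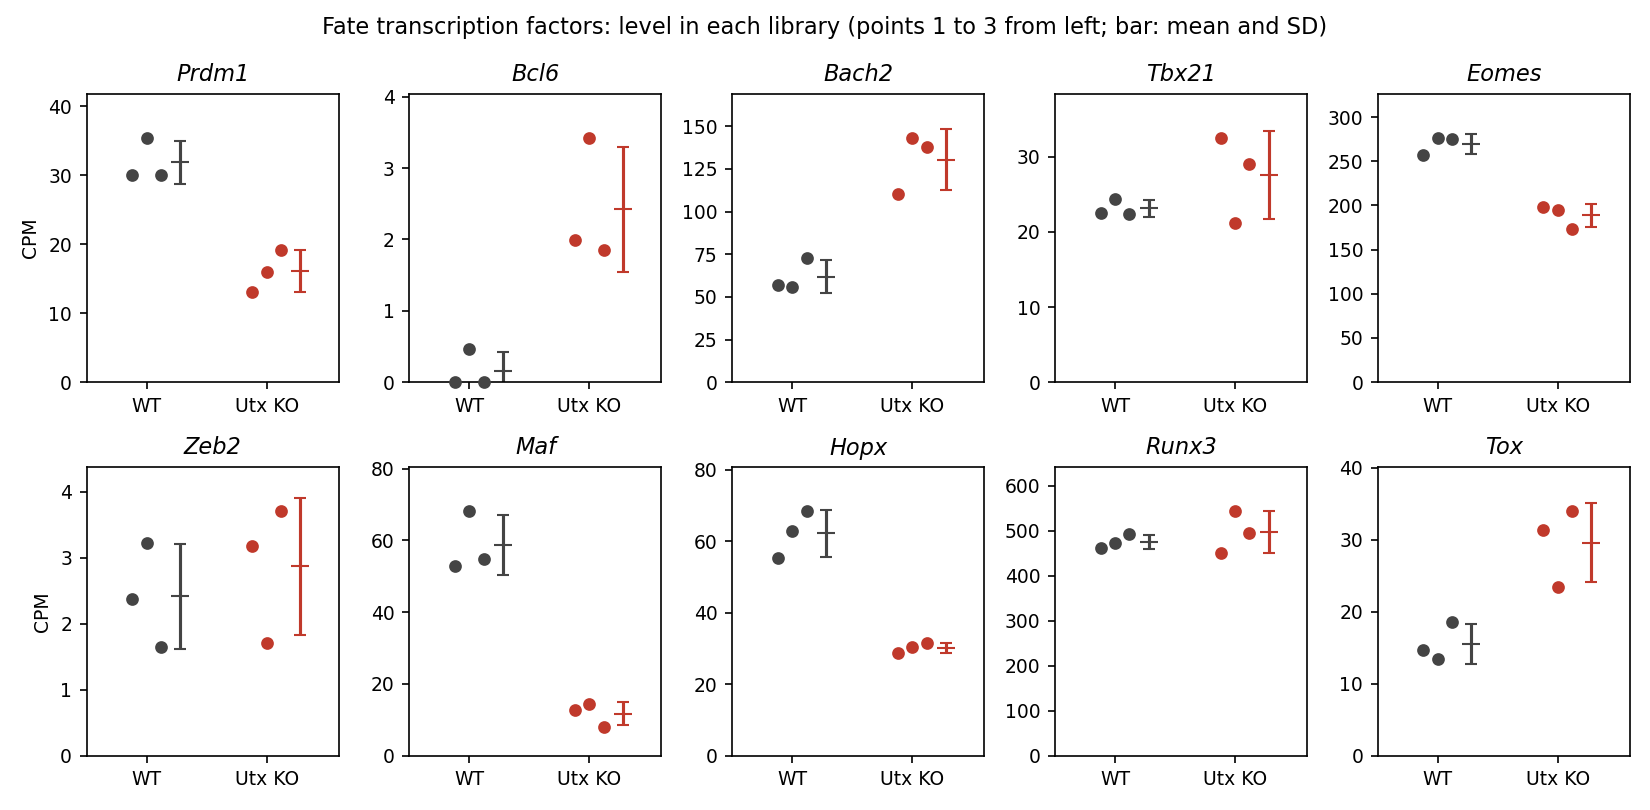
Level of each factor in CPM (vertical axis, its own scale in each panel) in WT and Utx KO libraries; points are replicates 1, 2 and 3 from left to right, and the bar gives the mean and SD (n = 3). The groups are apart for 7 factors and overlap for Tbx21, Zeb2 and Runx3.

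Prdm1 (ENSMUSG00000038151, GRCm38 chromosome 10, 44437177 to 44528501, minus strand) measured 30.1, 35.5 and 30.1 CPM in the WT libraries, against 13.1, 16.0 and 19.2 CPM in the Utx KO libraries. Every Utx KO library lay below every WT library. Prdm1 fell by 0.96 on the log2 scale (SE 0.19, limma adjusted p = 0.000979), from 31.9 ± 3.12 to 16.1 ± 3.02 CPM (SD, n = 3). This spread is close to what counting alone gives at these depths, 3.86 CPM for WT against 2.92 CPM for Utx KO. The fall passed in all 16 alternatives, with adjusted p from 0.000229 to 0.0147.

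Bcl6 (ENSMUSG00000022508, chromosome 16, 23965052 to 23988852, minus strand), the repressor opposed to Blimp-1, was close to the limit of detection. The WT libraries held 0, 1 and 0 reads, and the Utx KO libraries 5, 6 and 3 reads, or 1.99, 3.43 and 1.85 CPM there. All 3 Utx KO libraries were above all WT libraries, yet the whole difference rests on 14 reads against 1. The ratio of pooled CPM was 15.5, and its exact 95% interval, for counting error only, ran from 2.36 to 656. Bcl6 rose by limma (log2 fold change 1.56, SE 0.46, adjusted p = 0.0296), but this call was lost in 6 of the 13 alternatives that tested it, among which adjusted p ran from 0.00338 to 0.158. These were DESeq2 (0.158), a pseudocount of 0.1 (0.0722), and leaving out replicate 1 or 3 of WT (0.0983 and 0.0828) or replicate 1 or 2 of Utx KO (0.0554 and 0.132). Its log2 fold change also grew to 3.85 with DESeq2 and 3.77 with the pseudocount of 0.1.

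Bach2 (ENSMUSG00000040270, chromosome 4, 32238804 to 32586108, plus strand), the repressor that keeps Prdm1 low in naive and memory cells, moved opposite to Prdm1 at a much higher level than Bcl6. WT libraries held 56.9, 55.8 and 72.8 CPM, and Utx KO libraries 110.4, 143 and 138 CPM. The lowest Utx KO library was above the highest WT library. Bach2 rose by 1.07 on the log2 scale (SE 0.12, limma adjusted p = 5.99e-07), a fold of 2.09 with a 95% interval of 1.77 to 2.48, and it passed in all 16 alternatives (adjusted p from 9.79e-10 to 3.33e-05). The SD was 9.50 CPM among WT libraries, and among Utx KO libraries 17.6 CPM, above the 5.38 and 8.31 CPM that counting alone gives.

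B cells carry Bcl6 and Bach2 at high levels, so their markers were read beside these genes. Of 8 B-cell markers 5 had no read in any library, among them Cd79a, Ms4a1 and Pax5. Their summed level was 2.77 to 5.47 CPM in WT libraries, against 0.571 to 1.99 CPM in Utx KO libraries. Of the 8 markers 1, Cd79b, entered the limma fit and was not called (log2 fold change −1.09, limma adjusted p = 0.097). The part of B cells in the values of Bach2 and Bcl6 was not tested.

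Within a library the balance of Prdm1 to its antagonists can be read as a ratio that needs no scaling between libraries. Tags come from the 3' end only, about 1 for each transcript, and the length of a gene does not enter such a ratio. The log2 ratio of Prdm1 to Bach2 (CPM + 1) was −0.90, −0.64 and −1.25 in WT and −2.98, −3.09 and −2.78 in Utx KO. Prdm1 gave 34.5, 38.9 and 29.3% of the reads of the pair in WT and 10.6, 10.0 and 12.2% in Utx KO. The exact 95% intervals of these shares reached down to 22.9% in WT and up to 16.9% in Utx KO, so they did not meet. The mean log2 ratio differed by −2.02 (Utx KO minus WT).

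The log2 ratio of Prdm1 to Bcl6 was 4.96, 4.64 and 4.96 in WT and 2.24, 1.94 and 2.82 in Utx KO, a mean difference of −2.52. Since Bcl6 was near 0 in WT, the size of this difference depends on the pseudocount: it was −3.17 with 0.5 and −4.77 with 0.1. Prdm1 gave 86.8, 82.4 and 91.2% of the reads of this pair in Utx KO, of 38, 34 and 34 reads, so Prdm1 remained the more abundant of the 2 in each library. The groups did not overlap in either ratio. Bcl6, however, passed the filter on low values only through the Utx KO libraries, with 14 reads there against 1 in WT. Its ratio therefore adds no support of its own. For each the exact two-sided permutation p was 0.10, the smallest that 3 against 3 libraries allow, and 0.133 when adjusted over the 4 pairs compared.

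**Figure D2:**
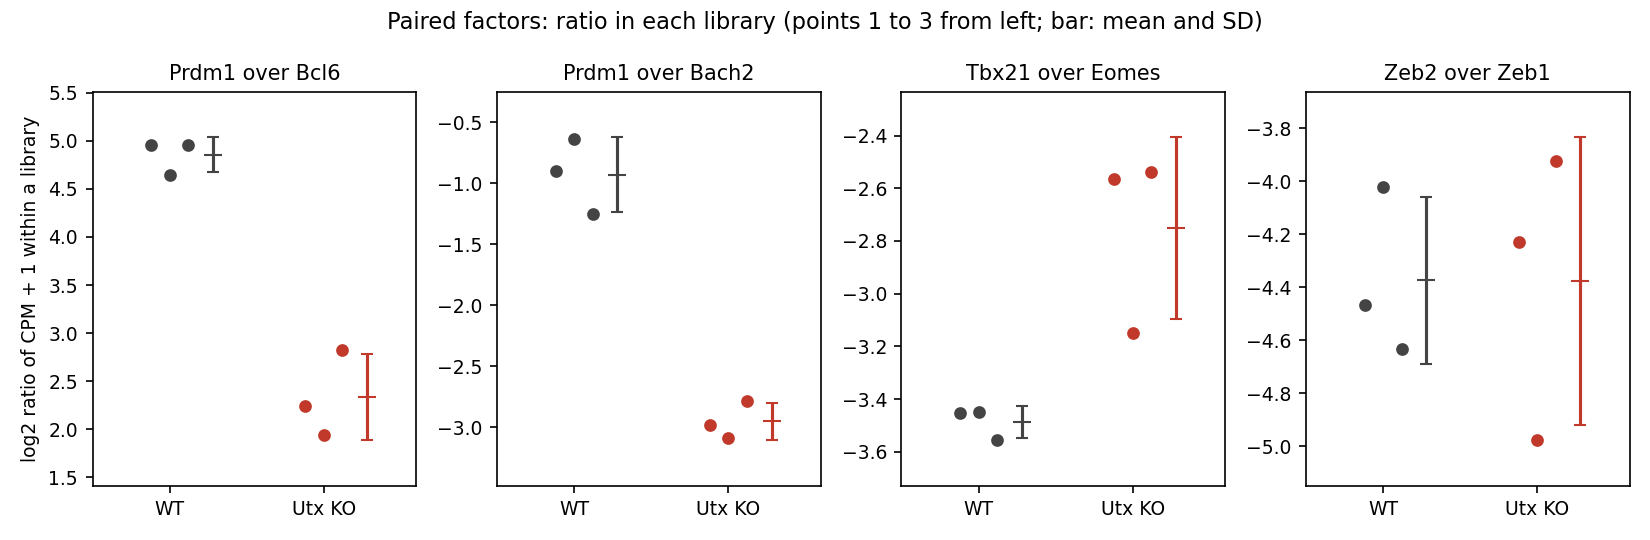
Log2 ratio of CPM + 1 of 2 factors within each library (vertical axis, its own range in each panel) for 4 pairs; points are replicates 1, 2 and 3 from left to right and the bar gives the mean and SD (n = 3). WT and Utx KO are apart for the ratios of Prdm1 to Bcl6, Prdm1 to Bach2 and Tbx21 to Eomes, and overlap for Zeb2 to Zeb1. Bcl6 passed the filter on low values only through the Utx KO libraries.

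Windows at annotated starts of these 3 genes are shown because the proteins are known to act on each other's genes. The Prdm1 and Bach2 windows and the second Bcl6 window lie inside the gene spans given above, away from their 5' ends. The 5' ends of the Prdm1 and Bach2 spans are not in the windows shown. RefSeq windows (GRCm38.p6, 250 bases before to 50 after a start) were matched for 8 of the 10 factors, in 14 windows; Maf and Tox were not matched. Capitals mark matches on either strand to GNGAAAG (the core bound by Blimp-1) and TTCNNNGAA (a palindrome of Bcl6 sites that STAT sites share). They also mark TGANTCA and CACCTG (an E-box of Zeb factors). TGANTCA is a loose pattern, free at its middle base, for the element of AP-1, Bach and Maf dimers. A match to it need not be such an element. The palindrome and GNGAAAG are marked in Bcl6 and Bach2, TGANTCA and CACCTG in Prdm1.
Prdm1, chr10:44458699-44458998, minus strand: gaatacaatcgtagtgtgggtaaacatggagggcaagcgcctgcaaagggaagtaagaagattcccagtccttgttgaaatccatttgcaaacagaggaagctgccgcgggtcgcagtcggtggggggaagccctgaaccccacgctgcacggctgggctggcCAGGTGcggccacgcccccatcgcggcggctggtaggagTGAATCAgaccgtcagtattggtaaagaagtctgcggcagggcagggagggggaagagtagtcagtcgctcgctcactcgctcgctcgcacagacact
Bcl6 first window, chr16:23988803-23989102, minus strand: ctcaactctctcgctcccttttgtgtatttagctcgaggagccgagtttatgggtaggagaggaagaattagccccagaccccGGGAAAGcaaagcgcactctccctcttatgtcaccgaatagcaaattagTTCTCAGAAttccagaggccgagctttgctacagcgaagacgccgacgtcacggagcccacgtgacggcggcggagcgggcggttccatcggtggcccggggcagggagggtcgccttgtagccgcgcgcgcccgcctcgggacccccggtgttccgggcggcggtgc
Bcl6 second window, chr16:23981234-23981533, minus strand: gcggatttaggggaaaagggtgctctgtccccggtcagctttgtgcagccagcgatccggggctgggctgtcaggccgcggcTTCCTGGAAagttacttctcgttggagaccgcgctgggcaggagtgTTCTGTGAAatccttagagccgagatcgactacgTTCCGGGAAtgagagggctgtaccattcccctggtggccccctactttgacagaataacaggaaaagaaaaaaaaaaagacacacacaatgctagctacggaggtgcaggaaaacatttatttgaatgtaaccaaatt
Bach2, chr4:32417185-32417484, plus strand: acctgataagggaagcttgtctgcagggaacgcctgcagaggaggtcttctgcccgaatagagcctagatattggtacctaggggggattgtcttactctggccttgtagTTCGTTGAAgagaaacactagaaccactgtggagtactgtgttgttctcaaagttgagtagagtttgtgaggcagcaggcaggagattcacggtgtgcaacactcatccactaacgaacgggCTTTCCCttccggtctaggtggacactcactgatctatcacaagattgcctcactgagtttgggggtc

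The Prdm1 window holds TGAATCA, whose first base lies 48 bases before the start, and CAGGTG 87 bases before it. TGANTCA occurs in 7.81% of all 32851 windows of this length and CACCTG in 20.2%. The second Bcl6 window holds 3 copies of the palindrome, at −168, −122 and −88, and the first holds 1 at −118 beside GGGAAAG at −167. The Bach2 window has 1 palindrome at −140 and 1 CTTTCCC, a reverse complement of GNGAAAG, at −18. Over all windows the palindrome occurs in 8.3% and GNGAAAG in 22.6%. All of these patterns were searched in every window. The Prdm1 window holds neither the palindrome nor GNGAAAG, and the second Bcl6 window holds no GNGAAAG. The Bcl6 and Bach2 windows hold neither TGANTCA nor CACCTG. None of the marked matches overlap. The T-box element GGTGTGA, present in 3.98% of all windows, was in 0 of the 14 windows of the factors. These matches describe letters in a window and do not show binding.

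Of the T-box pair, Eomes fell and Tbx21 did not pass the test. Eomes (ENSMUSG00000032446, chromosome 9, 118478212 to 118486132, plus strand) measured 257, 277 and 275 CPM in the WT libraries, against 198, 195 and 174 CPM in the Utx KO libraries. All Utx KO libraries were lower than all WT libraries, and Eomes fell by 0.51 on the log2 scale (SE 0.07, limma adjusted p = 2.33e-05), to 0.701 times the WT level (95% interval 0.632 to 0.778). It passed in all 16 alternatives, with adjusted p from 7.88e-07 to 0.000578.

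Tbx21 (ENSMUSG00000001444, chromosome 11, 97098071 to 97115331, minus strand) gave 22.5, 24.4 and 22.4 CPM for WT, and 32.6, 21.1 and 29.0 CPM for Utx KO. Utx KO replicates 1 and 3 were above the WT libraries and replicate 2 below them. Limma fitted a log2 fold change of 0.22 (SE 0.18) with an adjusted p = 0.519, from 0.221 to 0.850 over 16 alternatives, and the 95% interval runs from a fold of 0.901 to 1.51. The WT spread of Tbx21 (SD 1.12 CPM) was below that of counting alone (3.29 CPM), and the Utx KO spread (5.86 CPM) above it (3.82 CPM).

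Eomes was the more abundant of the pair in every library. Tbx21 gave 8.07, 8.10 and 7.55% of the reads of the pair in WT and 14.1, 9.76 and 14.3% in Utx KO. The exact 95% interval of Utx KO replicate 2, 6.97 to 13.2%, takes in all 3 WT shares. The log2 ratio of Tbx21 to Eomes was −3.45, −3.45 and −3.56 in WT and −2.57, −3.15 and −2.54 in Utx KO, with a mean difference of 0.73 and groups that did not overlap. The exact two-sided permutation p was 0.10, or 0.133 adjusted over the 4 pairs.

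Maf and Hopx fell in Utx KO cells. Maf (ENSMUSG00000055435, chromosome 8, 115682942 to 115707794, minus strand) encodes c-Maf, an activator of interleukin 10 and of inhibitory receptor genes in T cells. WT libraries held 53.0, 68.2 and 54.7 CPM of it, and Utx KO libraries 12.7, 14.3 and 8.03 CPM. No Utx KO library reached the lowest WT library. Maf fell by 2.26 on the log2 scale (SE 0.19, limma adjusted p = 9.53e-09, from 1.93e-15 to 1.49e-06 over 16 alternatives), to 0.209 times the WT level (95% interval 0.158 to 0.275). This was the largest fall among the 10 factors. Myeloid cells also express Maf. Their 10 markers summed to 7.11 to 9.22 CPM in WT libraries, against 7.94 to 12.3 CPM in Utx KO libraries, with 5 at 0 in every library, Lyz2, Cd14 and Itgam among them. Cd68 was present in every library, at 4.61 to 7.11 CPM in WT and 7.55 to 10.3 CPM in Utx KO. It was the 1 marker in the limma fit and was not called (log2 fold change 0.49, limma adjusted p = 0.331). The part of myeloid cells in the values of Maf was not tested.

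Hopx (ENSMUSG00000059325, chromosome 5, 77086988 to 77115121, minus strand) encodes a small homeodomain cofactor that does not itself bind DNA and is linked to effector and long-lived T cells. Its level was 55.4, 62.7 and 68.4 CPM among WT libraries, and 28.6, 30.3 and 31.5 CPM among Utx KO libraries. The groups were well apart, and the Utx KO libraries lay within 3 CPM of each other. Hopx fell by 1.02 on the log2 scale (SE 0.13, limma adjusted p = 8.97e-06, from 3.31e-07 to 0.000235 over 16 alternatives), to 0.494 times the WT level (95% interval 0.408 to 0.599).

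Tox rose while Runx3 and Zeb2 did not pass the test. Tox (ENSMUSG00000041272, chromosome 4, 6686353 to 6991557, minus strand), an HMG-box factor of T-cell development and exhaustion, measured 14.6, 13.4 and 18.6 CPM in the WT libraries, against 31.4, 23.4 and 34.0 CPM in the Utx KO libraries. The lowest Utx KO library, replicate 2, was above the highest WT library. Tox rose by 0.88 on the log2 scale (SE 0.20, limma adjusted p = 0.00364), a fold of 1.84 with a 95% interval of 1.39 to 2.45, and it passed in all 16 alternatives (adjusted p from 0.00112 to 0.0304).

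Runx3 (ENSMUSG00000070691, chromosome 4, 135120652 to 135177990, plus strand), the Runt factor that sets the CD8 lineage and its cytotoxic program, was the most abundant of the 10. WT libraries gave 461, 474 and 493 CPM, and Utx KO libraries 451, 544 and 495 CPM. The groups overlapped, with Utx KO replicates 1 and 2 as the lowest and highest of all 6 libraries. The fitted log2 fold change of 0.06 (SE 0.06) had a limma adjusted p = 0.651, from 0.201 to 0.960 over 16 alternatives, and the 95% interval of the fold was narrow, 0.952 to 1.14. The sign turned to −0.01 without Utx KO replicate 2.

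Zeb2 (ENSMUSG00000026872, chromosome 2, 44983632 to 45117395, minus strand), an E-box repressor of terminal effector cells, was scarce. The WT libraries held 6, 7 and 3 reads and the Utx KO libraries 8, 3 and 6 reads, a pooled 16 against 17. A difference was not detectable at this depth: the 95% interval of the fold ran from 0.639 to 1.97 (log2 fold change 0.17, limma adjusted p = 0.866, from 0.663 to 0.997 over 13 alternatives). Its relative Zeb1, which binds the same E-boxes and is linked to memory cells, had a mean of 68.6 ± 4.55 CPM for WT, against 77.5 ± 7.06 CPM for Utx KO (limma adjusted p = 0.385; SD, n = 3). Zeb2 gave 3.13, 4.55 and 2.48% of the reads of this pair in WT and 3.94, 1.99 and 5.0% in Utx KO. The log2 ratio differed by −0.0031 between the groups (exact permutation p = 1.0), and its sign turned in 4 of the 9 alternatives.

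**Figure D3:**
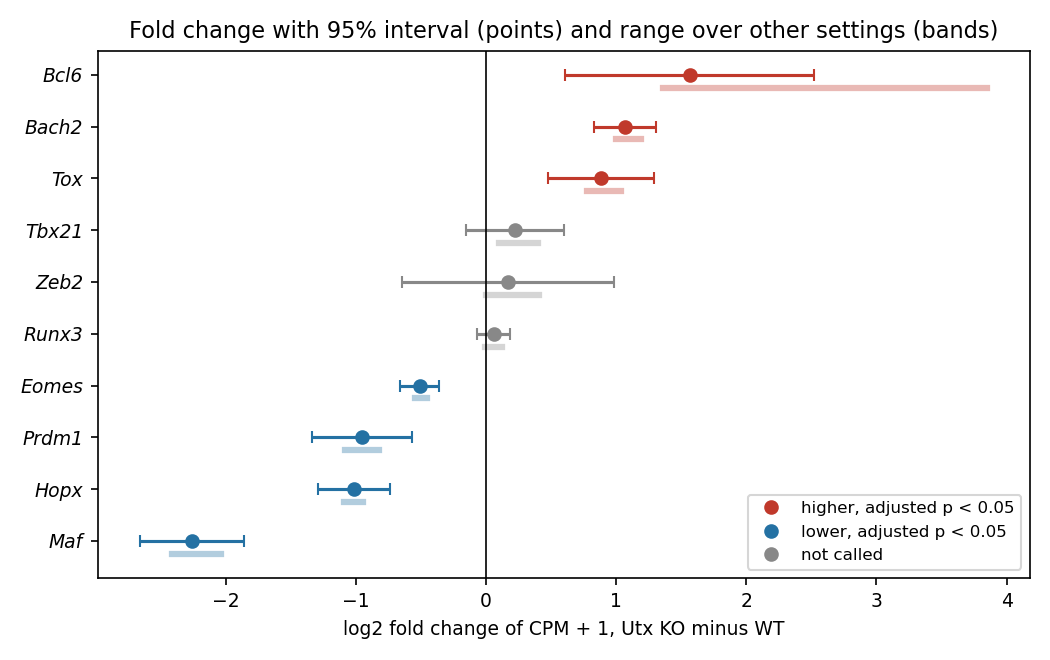
Log2 fold change of CPM + 1 (horizontal axis, Utx KO minus WT) of the 10 factors; points and bars are the limma estimate and its 95% interval, colours the call at an adjusted p under 0.05, and the pale bands the range of estimates over the alternative settings. Maf lies lowest at −2.26, the band of Bcl6 is the widest, and the intervals of Tbx21, Zeb2 and Runx3 cross 0.

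Since each transcript gives about 1 tag, levels of the factors can be ordered within a group. In WT the order by mean CPM was Runx3 (476), Eomes (269), Hopx (62.1), Bach2 (61.8), Maf (58.6), Prdm1 (31.9), Tbx21 (23.1), Tox (15.5), Zeb2 (2.41) and Bcl6 (0.154). The libraries of Hopx, Bach2 and Maf overlapped there, between 53.0 and 72.8 CPM, while the other neighbours did not. In Utx KO Runx3 (497), Eomes (189) and Bach2 (130.5) came first, and Bach2 was then apart from Hopx (30.1), Tox (29.6) and Tbx21 (27.6). These last 3 overlapped between 21.1 and 34.0 CPM. Prdm1 (16.1) and Maf (11.7) overlapped, as did Zeb2 (2.87) and Bcl6 (2.42). By mean level Maf stood at percentile 71.9 of all tested genes in WT and at percentile 32.8 in Utx KO, and Bach2 at percentiles 73.1 and 86.5.

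The factors were set beside 5 further lists of genes, which were chosen with earlier results of these data known. Of all 10590 tested genes 10.8% were called, 5.28% higher and 5.51% lower. Other transcription factors of CD8 T-cell fate gave 13 rises and 4 falls among 33 tested of 34 (51.5% called), with a median log2 fold change of 0.32. Id2, which blocks E proteins and promotes effector cells, fell by 0.91 (SE 0.05, limma adjusted p = 4.12e-13). Lef1, a partner of Tcf1 in memory cells, rose by 1.21 (SE 0.09, adjusted p = 4.1e-10), the chromatin organiser Satb1 by 0.67 (SE 0.06, adjusted p = 2.03e-08), and the quiescence and homing factor Klf2 by 1.12 (SE 0.11, adjusted p = 7.88e-08), all by limma. With DESeq2 the list gave 8 rises and 3 falls. Zfp683, the gene of the Blimp-1 relative Hobit, had no read in any library; it was singled out for this, as were the other genes without reads or under the filter that are named below.

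Relatives and cofactors of the 10 factors gave 0 rises and 1 fall among 18 tested of 22 (5.56% called against 10.8% of all tested genes, median log2 fold change 0.09). Here the call was Runx2, a relative of Runx3, with 38.9 ± 6.68 CPM for WT and 25.1 ± 1.57 CPM for Utx KO (log2 fold change −0.60, limma adjusted p = 0.0157; SD, n = 3). It was lost with DESeq2 (adjusted p = 0.122), without WT replicate 1 (0.110) and without WT replicate 3 (0.0761); its lowest adjusted p over 16 alternatives was 0.00891. Cbfb, the partner subunit of Runx proteins, was at 97.9 ± 4.50 and 92.8 ± 3.78 CPM. Cbfb was singled out after its values were seen.

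Genes that T-box factors are known to activate gave 0 rises and 10 falls among 14 tested of 18 (71.4% called, median log2 fold change −0.67, all 14 negative). Of all 10590 tested genes 10.8% were called and 5189 had a negative log2 fold change. The 4 with the lowest adjusted p encode proteins of cytotoxic granules: Gzma (−5.19), Prf1 (−1.77), Gzmb (−0.72) and Nkg7 (−0.43), with limma adjusted p from 7.64e-17 to 3.62e-06. Ccl4, 1 of the 14 with a negative value, had only 7 pooled reads in each group. Its log2 fold change was −0.09 and ran from −0.75 to 0.40 over the alternatives, so its sign is not settled. Ccl4 was singled out for this. Klrg1, Cx3cr1 and S1pr5, surface receptors of terminal effector cells, had no read in any library.

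Memory-associated genes and genes that Blimp-1 is known to repress gave 3 rises and 0 falls among 11 tested of 12. Of those tested 27.3% were called, against 10.8% of all tested genes. Their median log2 fold change was 0.24, with 7 values positive and 4 negative, against 5401 and 5189 of all tested genes. The list thus did not move in 1 direction, though none of its negative values was called. The rises included the homing receptor Ccr7 (0.56, limma adjusted p = 3.44e-05) and the interleukin 7 receptor chain Il7r (0.60, limma adjusted p = 0.0232). The call of Il7r was lost in 5 of 16 alternatives (adjusted p from 0.0129 to 0.211): with DESeq2 and without WT replicate 2 or 3 or Utx KO replicate 2 or 3.

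Genes linked to Blimp-1, c-Maf and Runx3 in resident, inhibited or interleukin 10-producing cells gave 0 rises and 5 falls among 8 tested of 12 (62.5% called against 10.8% of all tested genes, median log2 fold change −1.48). Il10 itself, a known target of c-Maf, had 34 pooled reads in WT and 2 in Utx KO, or 0.0652 times the WT level by pooled CPM (95% interval of counting error 0.00759 to 0.254; limma adjusted p = 0.00187). Like Bcl6 it passed the filter only through the group where it was higher, here WT, so its difference and its place in this count are in part fixed by the filter. Havcr2, another of the 5 falls, had 8, 8 and 17 reads in the WT libraries and 3, 0 and 0 in the Utx KO libraries. Its place in the count also rests on the WT libraries passing the filter, and it was singled out for this. Cd160, an inhibitory receptor, fell by 2.27, the chemokine receptor Cxcr6 by 1.48 and Entpd1 (CD39) by 1.48 on the log2 scale, with limma adjusted p from 2.08e-06 to 0.000109. The integrin genes Itgae and Itga1 of resident cells were under the filter.

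**Figure D4:**
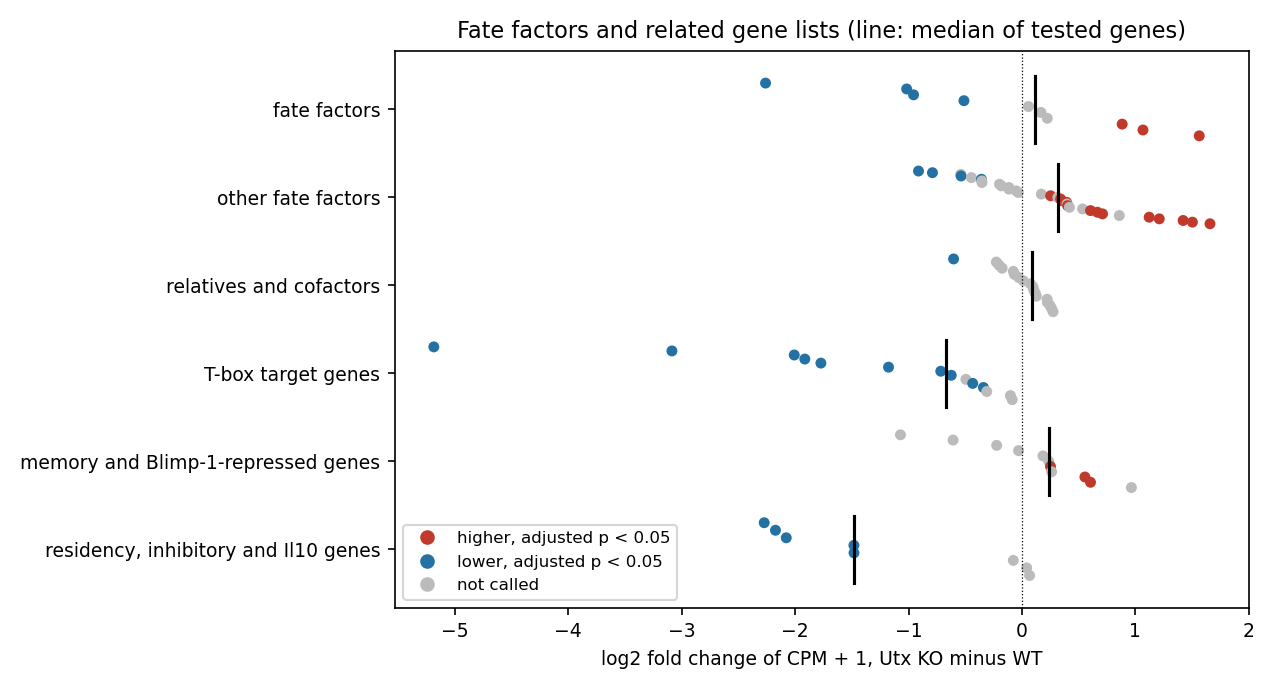
Log2 fold change of CPM + 1 (horizontal axis, Utx KO minus WT) of every tested gene in the 10 factors and the 5 further lists (rows); colours give the call at a limma adjusted p under 0.05 and the black line the median of the tested genes. The T-box target genes have no positive value, and the relatives and cofactors hold 1 call.

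None of the pieces of 50 nt from the last 300 nt of the coding transcripts of the 10 factors occurred in transcripts of other genes. Exons of 7 of them (all but Tbx21, Prdm1 and Runx3) overlap a gene model on the opposite strand, and those of Zeb2 also the microRNA gene Mir5129 on its own strand. Of these partners only Gm37419, opposite Bcl6, is among the listed genes, and it had no read in any library. Whether strand was used in counting is not stated in the sources used here, so reads of the partners that are not listed cannot be told apart.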

How the data were processed

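Messenger RNA was read from the 3' end (QuantSeq libraries) in 3 WT and 3 Utx KO cultures of activated CD8 T cells. Per the file headers, each library has CPM values of 25655 Ensembl genes, deposited by the authors. Builds GRCm38 and mm10 are named in the submitters' processing notes; the sources used here do not name the aligner, counting tool, strand handling or filters. All values above 0 were whole multiples of 1 read (100%, tolerance 0.001 reads), so read counts could be recovered. Symbols were found for 25600 identifiers.

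The test was limma-trend (limma 3.58.1, R 4.3.3) on log2(CPM + 1), with no term but genotype, two-sided, over 10590 genes with at least 1 CPM in 3 libraries, with Benjamini-Hochberg adjustment over all of them and a threshold of 0.05. Log2(CPM + 1) understates changes of low genes. Count tests on recovered reads (edgeR 4.0.16 and DESeq2 1.42.0), limma-voom, other pseudocounts, filters and scaling, a replicate block and leaving out each library were alternatives. The edgeR test called 1106 of 8832 genes. Ratios of factor pairs were compared by an exact permutation test (scipy 1.17.1). Intervals on reads are exact binomial (95%) and cover counting error only. The limma, edgeR, DESeq2 and limma-voom fits were tested on simulated counts. Changes were planted there only in more abundant genes, so these runs do not cover scarce genes such as Bcl6, Zeb2 and Il10.

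The factors and lists were chosen with earlier results of these data known. All 10 factors are reported whatever their result, as are Kdm6a and Zeb1. From each further list the up to 4 genes with the lowest adjusted p are named, or every changed gene where there are 4 or fewer; 1 such gene is not reported here. Positions come from GENCODE M21 (GRCm38) and promoter windows from RefSeq (GRCm38.p6).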

Additional observations from a re-analysis of the deposited data

How the results depend on the processing

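Of the 10 factors, Maf, Hopx, Prdm1, Eomes, Bach2 and Tox kept their direction and their call in all 16 alternatives, and Tbx21 stayed above the threshold in all 16. Bcl6 kept its direction in the 13 that tested it and lost its call in 6. The factors called numbered 6 or 7 in all 16. The sign of Zeb2 turned without WT replicate 3 (−0.004; range without 1 library −0.004 to 0.40) and that of Runx3 without Utx KO replicate 2 (range −0.01 to 0.13). The log2 ratio of Zeb2 to Zeb1 turned positive with a pseudocount of 0.1 (0.047) and 0.5 (0.021), and ran from −0.23 to 0.30 when 1 library was left out. Over all genes the 1142 calls became 551 with DESeq2 and 754 to 1042 without 1 library, the lowest without WT replicate 2. With DESeq2 the calls were 11 of the other fate factors, 0 of the relatives and cofactors and 1 of the memory and Blimp-1-repressed genes. Without 1 library the last 2 lists gave 0 to 1 and 1 to 3 calls. The residency, inhibitory and Il10 list gave 3 calls with edgeR, with limma-voom and with at least 5 CPM in 3 libraries, settings that test 6 of its genes in place of 8. With the replicate number as a block, 1065 genes were called and the calls of the 10 factors did not change; same-numbered libraries did not deviate together (r from −0.010 to 0.006), and none correlated best with its own number. Depth limits Bcl6 and Zeb2, and a scaling by TMM changed no call of a factor. The causes of these changes were not tested.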
